A study of Mus musculus with 9 samples.

Results

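The genes described here are 43 genes of the cell cycle, taken by symbol from 23231 gene symbols measured in whole pancreas of mouse embryos at stage e15.5. They comprise 17 genes of the G1/S transition and DNA replication (the S phase genes), 20 genes of G2 and mitosis, the 3 D-type cyclins with their kinase partner Cdk4, and the 2 CDK inhibitors Cdkn1a and Cdkn1b. All 43 symbols were found and all passed the filter on low values. RNA sequencing gave 9 libraries, 3 of each genotype: wild type (Blinc1+/+), heterozygote (Blinc1+/-) and knockout (Blinc1-/-), all on a mixed background of C57BL/6 and 129Sv. Blinc1 makes a long noncoding RNA and neighbours Nkx2-2, which encodes an islet transcription factor, and the comparisons ask how the genotypes differ in gene expression. The labels do not say how many embryos or litters a library represents, so the p-values reflect no more than the spread among these samples, which may be technical in part. Wild-type and heterozygote libraries included both sexes (below), so those of different sex came from different embryos. Whether the knockout libraries did is not known.

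Cells that divide pass through a fixed order of gene programmes. In G1, D-type cyclins with Cdk4 relieve the block that retinoblastoma proteins hold on E2F factors, and E2F targets such as cyclin E, Cdc6, the Mcm helicase subunits and the enzymes of nucleotide supply then rise for DNA replication. Genes of G2 and mitosis, such as cyclin B, Cdk1, the Aurora kinases and the mitotic kinesins, are transcribed later, through promoters that often carry a CHR element next to CCAAT boxes. The pancreas at this stage still grows quickly, in the acinar and progenitor epithelium as well as in mesenchyme, while hormone-producing cells have mostly left the cycle. In whole tissue, fewer cells of a type and less RNA per cell cannot be told apart.

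Sequences of the promoters are shown because the S phase and G2 and mitosis genes differ in them, and because each library's levels of the 2 groups are compared further on. They come from RefSeq (build GRCm38.p6) and matched 34 of the 43 members; Ccna2, Ccne2, Ccnd1, Ccnd2, Mcm4, Aurkb, Kif20a, Tpx2 and Foxm1 had no entry. Each line gives the 150 bases before the start of the gene, 5′ to 3′ on the gene's strand, with matches to the motifs defined in the next paragraph in capitals. Cdc6 (chromosome 11, 98908001 to 98908150, plus strand) and Mcm6 (chromosome 1, 128359706 to 128359855, minus strand) are examples of S phase genes with an E2F-type match in these bases. The start used for Mcm6 was not found in a GENCODE transcript of that gene, while those of the other 5 genes shown were. Cdk1 (chromosome 10, 69352913 to 69353062, minus strand), Ube2c (chromosome 2, 164769779 to 164769928, plus strand), Cdc20 (chromosome 4, 118437344 to 118437493, minus strand) and Top2a (chromosome 11, 99024190 to 99024339, minus strand) are examples of G2 and mitosis genes with a CHR match. Other genes of both lists, such as Pcna and Bub1, hold neither match in these bases.
Cdc6: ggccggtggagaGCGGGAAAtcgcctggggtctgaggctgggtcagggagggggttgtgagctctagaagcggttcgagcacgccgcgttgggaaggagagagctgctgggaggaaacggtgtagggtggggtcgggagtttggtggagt
Mcm6: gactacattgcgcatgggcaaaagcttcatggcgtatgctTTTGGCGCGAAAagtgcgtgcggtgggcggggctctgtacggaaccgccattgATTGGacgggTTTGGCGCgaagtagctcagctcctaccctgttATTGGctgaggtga
Cdk1: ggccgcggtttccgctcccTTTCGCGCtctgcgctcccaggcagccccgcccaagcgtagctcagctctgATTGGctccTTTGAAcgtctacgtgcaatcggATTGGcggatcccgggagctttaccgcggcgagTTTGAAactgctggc
Ube2c: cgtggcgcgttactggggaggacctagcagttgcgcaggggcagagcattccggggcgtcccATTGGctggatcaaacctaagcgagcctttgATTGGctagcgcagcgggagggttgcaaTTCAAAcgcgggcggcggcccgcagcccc
Cdc20: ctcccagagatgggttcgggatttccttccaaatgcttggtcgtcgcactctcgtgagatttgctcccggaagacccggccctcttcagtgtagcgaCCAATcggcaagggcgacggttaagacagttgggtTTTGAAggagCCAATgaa
Top2a: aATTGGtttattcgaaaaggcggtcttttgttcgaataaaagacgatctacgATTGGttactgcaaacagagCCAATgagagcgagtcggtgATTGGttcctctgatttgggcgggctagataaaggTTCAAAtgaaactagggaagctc

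The motifs were searched on both strands in the full window, 250 bases before to 50 bases after the start. A CHR match is TTTGAA. An E2F-type match is TTTCGCGC, TTTGGCGC, TTTCCCGC or TTTGCCGC. The CCAAT box is CCAAT. Matches of 2 different motifs overlapped in 1 promoter of a member. Of the 15 G2 and mitosis genes with a promoter in the table, 11 (73.3%) held a CHR match and all 11 held a CCAAT box as well. Among the 15 S phase genes, 2 (13.3%) held a CHR match. Of the 9445 genes in the expression test that had a promoter, 14% held a CHR match and 7.01% held it together with CCAAT. E2F-type matches were arranged the other way, in 7 of 15 S phase genes (46.7%), 1 of 15 G2 and mitosis genes (6.67%, Cdk1) and 4.66% of the genes tested. CCAAT boxes stood in 13 of 15 G2 and mitosis promoters (86.7%), 10 of 15 S phase promoters (66.7%) and 43.2% of the genes tested. Of the 15 CHR matches in G2 and mitosis promoters, 10 began within 50 bases of the start. The promoters of Ccnd3 and Cdk4 and those of Cdkn1a and Cdkn1b held neither CHR nor E2F-type matches. A match is a description of the letters and does not show binding in these cells.

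**Figure D1:**
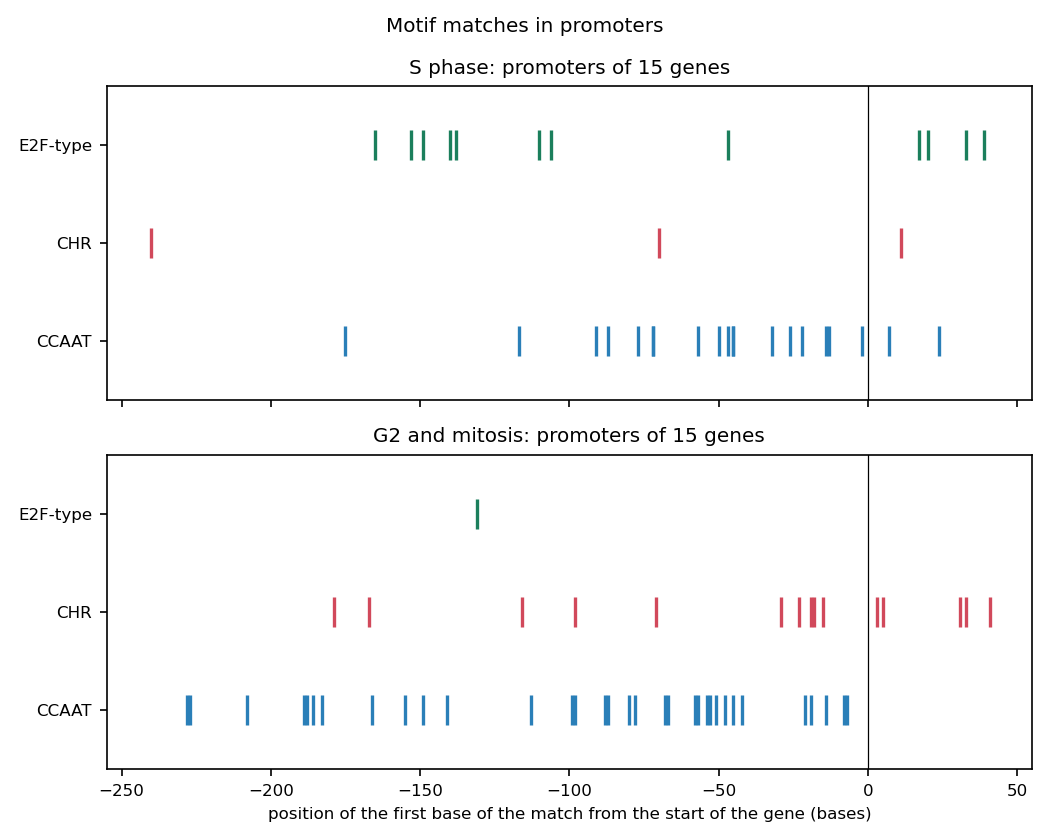
Position of motif matches in the promoters of 15 S phase genes (upper panel) and 15 G2 and mitosis genes (lower panel), in bases from the start of the gene; each bar is 1 match. CHR matches gather near the start in the G2 and mitosis panel, where 11 of 15 genes hold one, and E2F-type matches are mostly in the S phase panel, where 7 of 15 genes hold one.

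Depth, sex and other cell types differed between libraries in ways that touch the results. The depth implied by the confidence bounds of the FPKM (fragments scaled to transcript length and library depth) was 18727537 to 23600046 fragments per library. All 3 knockout libraries came from female embryos, read from Xist and the Y-linked gene Ddx3y, as did wild-type replicate 3 and heterozygote replicate 3, whereas the other 4 libraries were male. No value for Blinc1 is used here, so the genotypes were not checked against it. Nkx2-2, which is not the targeted gene, was at 15.2 to 25.5 FPKM in wild type. It stood at 24.9 FPKM in knockout replicate 1 and at 5.48 and 6.08 FPKM in the other knockouts, and at 6.37 FPKM in heterozygote replicate 1 and 13.4 and 19 FPKM in the other heterozygotes. Those libraries, knockout replicate 1 and heterozygote replicate 1, stand apart from their groups, and results that rest on them are given with and without them. Several marker lists moved as well. All 11 acinar markers had a positive and all 10 mesenchyme, all 8 endothelial and all 10 immune markers a negative difference between knockout and wild type, as did 11 of 13 endocrine markers (median -0.33). Between knockout and wild type, duct and trunk markers (4 of 7 positive, median 0.04) and neuron and glia markers (4 of 8, 0.02) were mixed. So were erythroid markers (5 of 8, 0.06), beside 41.5% positive over all genes tested (median -0.03). Of 8 erythroid markers tested, 7 were lower in heterozygotes than in wild type (median -0.52) and 8 higher in knockouts than in heterozygotes (median 0.48). In those comparisons 42.9% and 44.7% of all genes tested were positive. The summed acinar level was 16250 to 16980 FPKM in wild type, 18170 to 20210 in heterozygotes and 15500 to 23960 in knockouts, and the summed mesenchyme level 1481 to 1956, 1369 to 1571 and 1177 to 1695. Endothelial markers summed to 226.6 to 259.4, 221.9 to 232.4 and 188.5 to 234.3 FPKM in the same order of groups, and immune markers to 316.9 to 341.6, 298.8 to 349.1 and 243.2 to 294. Endocrine markers summed to 4186 to 5895, 3312 to 5104 and 3173 to 5113 FPKM and erythroid markers to 4783 to 6989, 2598 to 5462 and 5086 to 7075. No marker found in these lists was listed at 0 in any library. Their part in the differences below was not tested.

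The means of the 43 genes ran from 7.23 to 489 FPKM, within the 0.66 to 16120 FPKM of all genes tested. Cdk4, the catalytic partner of the D-type cyclins, had the highest mean at 489 FPKM over 9 libraries, and Ccne2, one of the E-type cyclins that drive S phase entry with Cdk2, the lowest at 7.23 FPKM. Ube2c, which encodes the ubiquitin-conjugating enzyme of the anaphase-promoting complex, followed Cdk4 at 240 FPKM, then the chromosomal passenger gene Birc5 at 150.2 FPKM, the D-type cyclin gene Ccnd3 at 149 FPKM and Pcna, the sliding clamp of DNA polymerase, at 131 FPKM. Mki67, the source of the Ki-67 antigen used to mark cycling cells, was at 25 FPKM.

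Between libraries the members varied little. The coefficient of variation (SD over mean of the 9 libraries) was below 10% for 41 of 43 members, the exceptions being Ccnd1 at 23.2% and Cdkn1a at 10.1%. Its median was 5.72% over the members, 5.78% over the S phase genes and 5.21% over the G2 and mitosis genes. Over the 8247 tested genes whose mean lay in the range of the members it was 6.81%, and 6264 of these were below 10%. Counting error alone, taken from the implied fragments, would give 0.872% for Cdk4 and 5.12% for Ccne2, the member with the fewest fragments (287.3 to 454.6 per library). In each of the 43 genes the observed coefficient of variation was above its counting error.

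**Figure D2:**
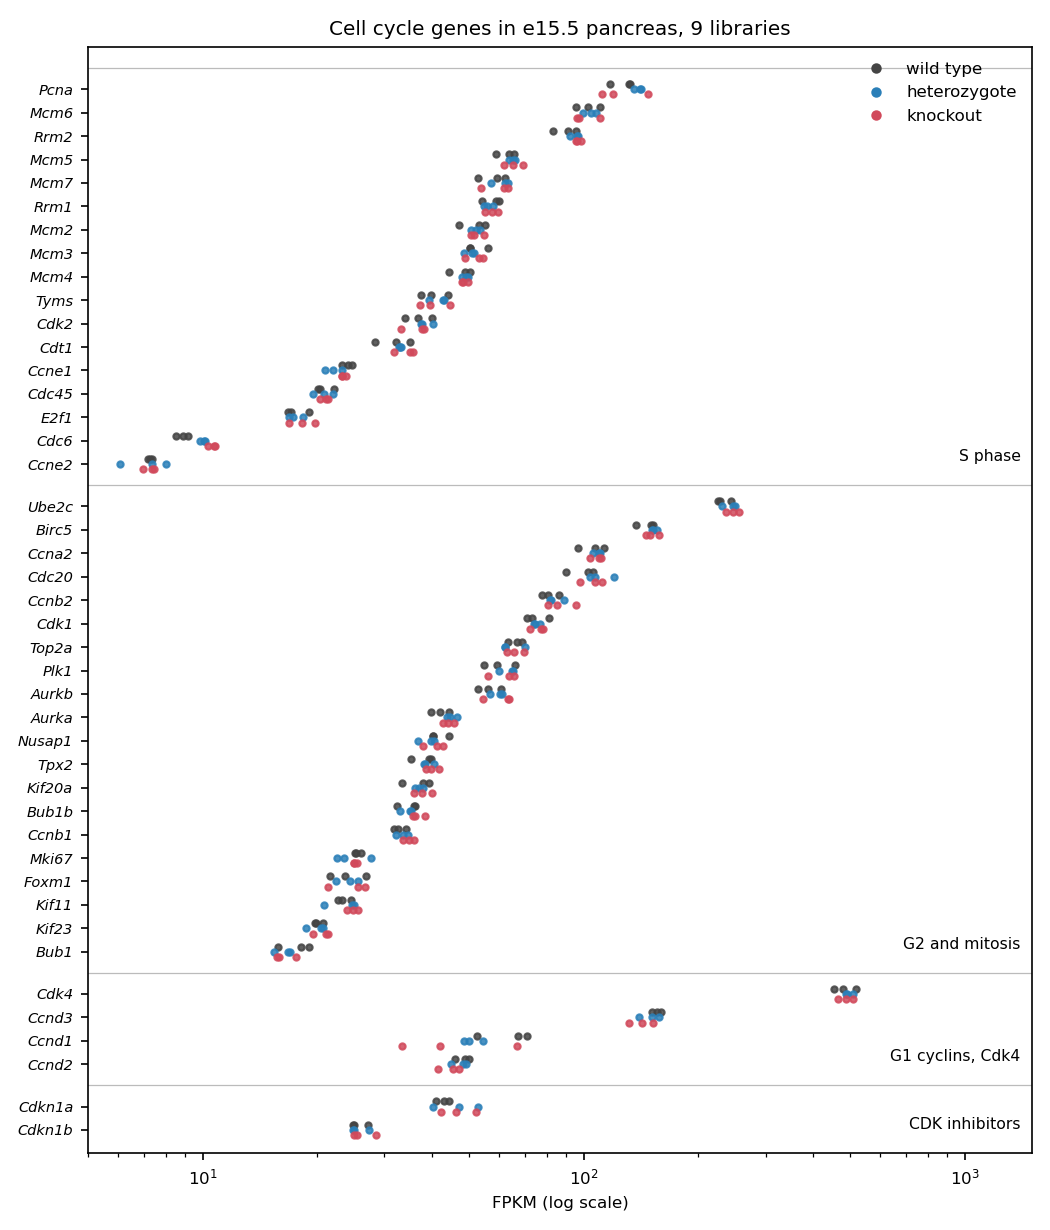
FPKM (log axis) of the 43 cell cycle genes in each of the 9 libraries, one point per library, grouped by role and ordered by mean level. The 3 genotypes lie on top of each other for most genes; Ccnd1 has the widest spread (33.3 to 71.1 FPKM) and the Cdc6 points step from wild type to knockout.

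No cell cycle gene passed the test in any comparison. limma, on log2(FPKM + 1) with Benjamini-Hochberg adjustment over 13306 genes, called 0 members and 0 genes (0% of those tested, in each direction) between knockout and wild type, between heterozygote and wild type, and between knockout and heterozygote. At an unadjusted p under 0.05 the members numbered 1, 1 and 0 in these comparisons, the 1 being Cdc6, higher, in each case. The share of all tested genes under that unadjusted threshold was 2.6% higher and 5.79% lower in knockout against wild type, 1.35% and 2.58% in heterozygote against wild type, and 1.26% and 0.969% in knockout against heterozygote. limma's voom on the implied fragments also called 0 genes in each comparison, with 1165, 505 and 275 genes under an unadjusted p of 0.05. The data were precise enough to bound most members closely. The 95% interval of the difference between knockout and wild type lay within 0.25 of 0 on the log2 scale for 32 of 43 members, and the median half-width of the interval was 0.15. With 3 libraries a group, the smallest p of an exact permutation test is 0.1.

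**Figure D3:**
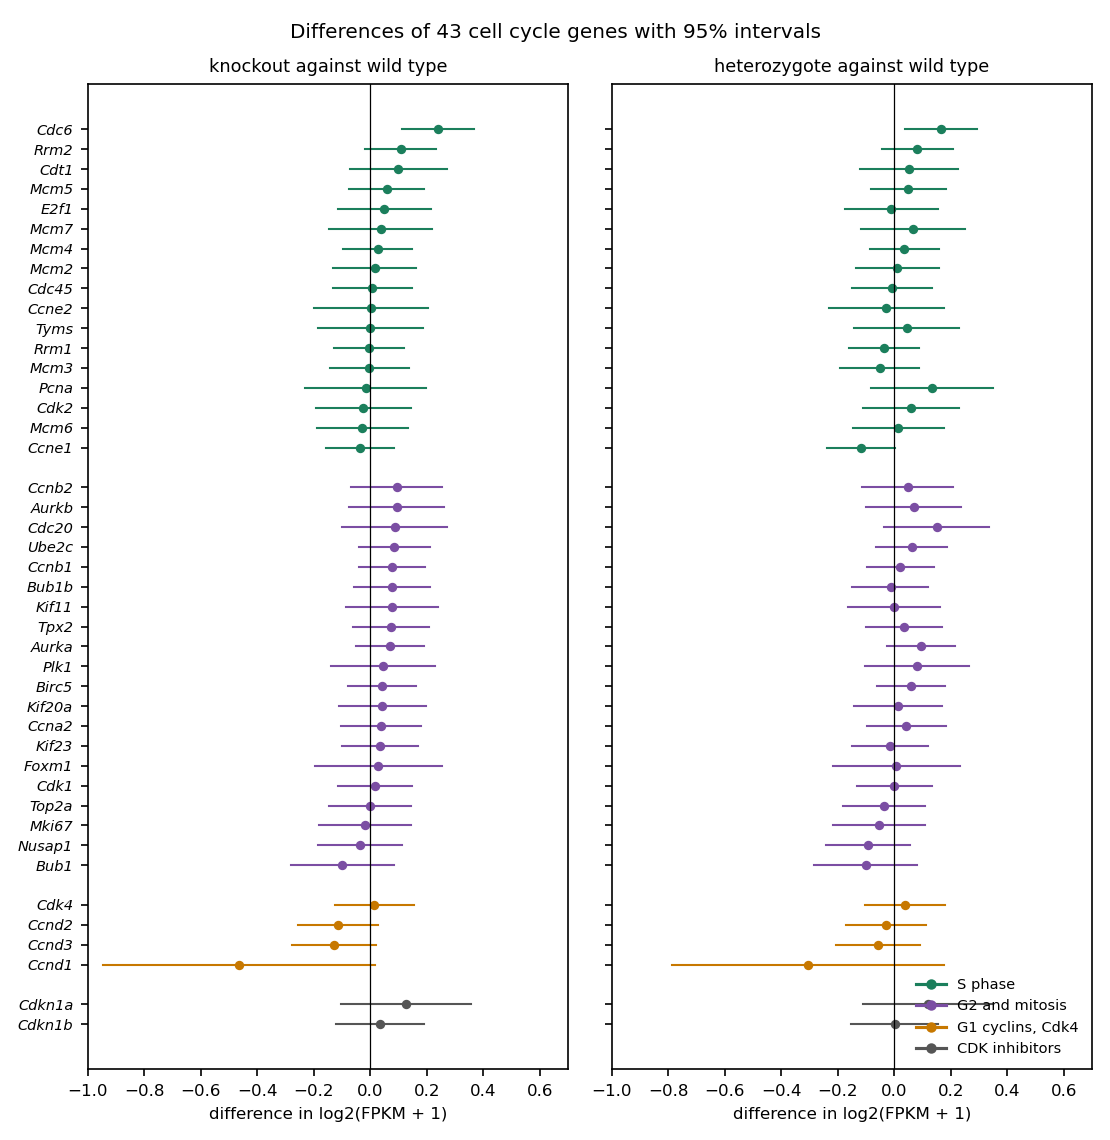
Difference in log2(FPKM + 1) of each cell cycle gene for knockout against wild type (left) and heterozygote against wild type (right), which share the wild-type libraries; points are limma estimates and lines 95% intervals, coloured by role. Most intervals include 0, those of Cdc6 lie above it in both panels before adjustment, and Ccnd1 has the widest interval (-0.95 to 0.02 on the left).

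As groups, the S phase and the G2 and mitosis genes differed little from wild type. The signs of some of their median differences depended on single libraries. Between knockout and wild type the median log2 difference was 0.01 over the S phase genes (10 of 17 positive) and 0.04 over the G2 and mitosis genes (16 of 20 positive), beside -0.03 over all 13306 genes (41.5% positive). Between heterozygote and wild type it was 0.04 (11 of 17) and 0.02 (13 of 20), beside -0.02 over all genes. Knockout and heterozygote differed by 0.01 (11 of 17) and 0.03 (15 of 20), beside -0.01. For comparison, the median deviation of a single library had an SD within groups of 0.06 for either list, larger than any of these differences. That SD is the spread of single libraries and not the error of a difference between groups. Without wild-type replicate 2 the knockout medians were -0.03 (6 of 17 positive) and 0.01 (10 of 20), and the heterozygote medians -0.02 and -0.02. With median-of-ratios size factors, 16 of 17 S phase genes and 18 of 20 G2 and mitosis genes were positive for knockout against wild type. Their medians were 0.03 and 0.07, beside 0 over all genes with that scaling. For heterozygote against wild type 13 of 17 and 16 of 20 were positive, beside a median of -0.001 over all genes. Adding sex as a covariate, the S phase median for knockout against wild type was -0.01 (7 of 17 positive). The G2 and mitosis median was 0.02 (15 of 20), beside -0.02 over all genes. Between knockout and heterozygote both medians were -0.02 with this covariate (6 of 17 and 9 of 20), beside -0.01 over all genes.

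Libraries with low S phase genes also had low G2 and mitosis genes, in more than 1 genotype. In wild-type replicate 2, only 1 of 17 S phase genes and 1 of 20 G2 and mitosis genes lay above its own median over the 9 libraries, where 43.5% of all tested genes did. Knockout replicate 2 had 2 of 17 and 2 of 20, beside 31.3% of all genes. The sizes differed between these libraries. In wild-type replicate 2 the median log2 deviations from the genes' own medians were -0.135 and -0.125, beside 0 over all genes. In knockout replicate 2 they were -0.05 and -0.054, close to the -0.048 over all genes of that library. At the other end stood knockout replicate 1 (13 of 17 and 15 of 20, beside 56% of all genes), knockout replicate 3 (12 of 17 and 15 of 20, beside 40.7%) and wild-type replicate 3 (11 of 17 and 15 of 20, beside 47.6%). The other 4 libraries had 5 to 10 of 17 and 6 to 10 of 20. As deposited, each genotype other than the heterozygotes therefore held both a low and a high library. The low knockout library was low over all tested genes to a like degree. Wild-type replicate 2 also had the highest summed mesenchyme level (1956 FPKM) and knockout replicate 2 the highest summed acinar level (23960 FPKM); whether these bear on the cell cycle genes was not tested.

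Because both groups share each library's scaling, the distance between them was examined as well. The mean log2(FPKM + 1) of the S phase genes was 5.23 to 5.38 in wild type, 5.32 to 5.36 in heterozygotes and 5.28 to 5.38 in knockouts, and that of the G2 and mitosis genes 5.57 to 5.72, 5.66 to 5.69 and 5.63 to 5.73. The S phase mean minus the G2 and mitosis mean moved far less. It was -0.345, -0.341 and -0.341 in wild-type replicates 1 to 3, -0.322, -0.329 and -0.351 in heterozygotes and -0.355, -0.350 and -0.353 in knockouts. The knockout libraries lay below the wild-type libraries without overlap (means -0.353 in knockouts and -0.342 in wild type, not tested), and the heterozygotes spanned the wild-type values. As a ratio of summed FPKM, G2 and mitosis over S phase, the groups met: it was 1.49 to 1.52 in wild type, 1.49 to 1.52 in heterozygotes and 1.52 to 1.55 in knockouts, with wild-type replicate 2 and knockout replicate 3 both at 1.521.

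**Figure D4:**
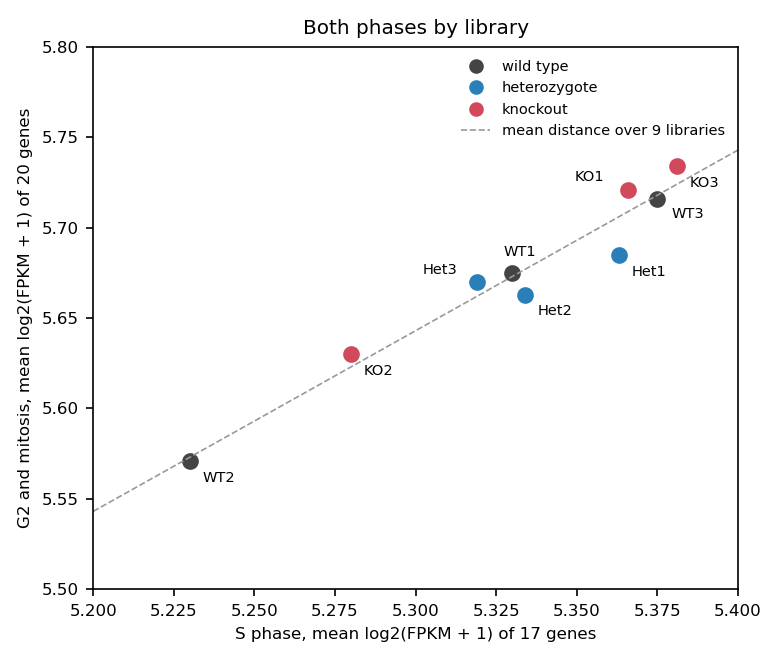
Mean log2(FPKM + 1) of 17 S phase genes (x axis) against that of 20 G2 and mitosis genes (y axis), one point per library, coloured by genotype; the dashed line marks the mean distance between the groups of genes. The points run along the line from wild-type replicate 2 (5.23 and 5.57) to knockout replicate 3 (5.38 and 5.73), with genotypes mixed along it.

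Among the S phase genes Cdc6 stood out. Cdc6 (mm9 chromosome 11, 98769203 to 98785256) encodes the ATPase that loads the Mcm helicase onto replication origins. Wild-type replicates 1 to 3 had 9.14, 8.86 and 8.49 FPKM, with Cdc6 at 9.82, 10.1 and 10.2 FPKM in heterozygotes and at 10.7, 10.8 and 10.3 FPKM in knockouts. Every heterozygote lay above every wild-type library and every knockout above every heterozygote. This order without overlap was met by 1 of 43 members and by 0.113% of the genes tested (15 of 13306). The reverse order was met by 0 of 43 members and by 0.0301% of the genes tested. Group means were 8.83 ± 0.324 (SD, n = 3), 10 ± 0.173 and 10.6 ± 0.244 FPKM. The difference from wild type was 0.24 on the log2 scale in knockouts (SE 0.06, limma adjusted p = 0.58, higher in 3 of 3 libraries) and 0.17 in heterozygotes (SE 0.06, limma adjusted p = 0.945), so neither passed. Over 20 alternatives the knockout difference stayed between 0.21 and 0.29, with limma adjusted p from 0.13 to 0.97. Knockout minus heterozygote was 0.07 (SE 0.06, limma unadjusted p = 0.225) and did not pass either. The lowest knockout (replicate 3, 10.32 FPKM) lay just above the highest heterozygote (replicate 3, 10.15 FPKM). Cdc6 rested on 835 to 1209 implied fragments per library, for which counting error is 3.18%. All 3 knockout libraries are female; the female library was the lowest of wild type (replicate 3) and the highest of the heterozygotes (replicate 3). Fitted with sex as a term, the difference of knockout from wild type was 0.255 (limma adjusted p = 0.87).

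The other genes of origin licensing and the replicative helicase did not share this order. Cdt1, which loads the helicase together with Cdc6, was at 31.9 ± 3.32, 33 ± 0.197 and 34.2 ± 2.09 FPKM in wild type, heterozygotes and knockouts (SD, n = 3). Cdc45, a part of the active helicase, was at 20.8 ± 1.14, 20.7 ± 1.25 and 20.9 ± 0.543 FPKM. The helicase subunit genes Mcm2 to Mcm7 had wild-type means from 47.7 FPKM (Mcm4) to 103 FPKM (Mcm6) and knockout means from 48.6 to 101 FPKM, and in each of the 6 the genotypes overlapped. Mcm6, whose promoter above holds 3 E2F-type matches, a pair of them overlapping, was at 103, 95.5 and 111 FPKM in wild type and 96, 96.9 and 110.0 FPKM in knockouts. E2f1 itself, an activator of this programme, was at 17.6 ± 1.19 and 18.3 ± 1.44 FPKM in wild type and knockout.

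Genes of nucleotide supply and the replication clamp differed in which libraries were high. Rrm2, the regulated subunit of ribonucleotide reductase, was at 90.9, 83 and 95.3 FPKM in wild type, 96, 92 and 96.6 FPKM in heterozygotes and 96, 95.4 and 98.4 FPKM in knockouts. The lowest knockout lay just above the highest wild-type library, and with size factors the groups overlapped. Its partner Rrm1 was at 57.7 ± 3.13 and 57.5 ± 2.25 FPKM and Tyms, which makes thymidylate, at 40.5 ± 3.43 and 40.5 ± 3.84 FPKM in wild type and knockout. Pcna (mm9 chromosome 2, 132075022 to 132078916) was at 132, 117 and 132 FPKM in wild type, at 140.3, 141 and 136 FPKM in heterozygotes and at 119, 111 and 147 FPKM in knockouts. The heterozygotes lay above wild type, while the knockouts held both the lowest and the highest of the 9 values. The difference between knockout and heterozygote was -0.15 (SE 0.10, limma adjusted p = 1), with limma adjusted p from 0.76 to 1 over 20 alternatives. It was -0.27 without knockout replicate 3 and -0.07 without knockout replicate 2.

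The E-type cyclin genes did not share the order of Cdc6 either. Ccne1 was at 24.1, 23.3 and 24.7 FPKM in wild type, at 22, 23.2 and 21 FPKM in heterozygotes and at 23.7, 23.2 and 23.3 FPKM in knockouts. The highest heterozygote lay just below the lowest wild-type library, and with size factors these groups overlapped. The difference from wild type was -0.12 in heterozygotes (SE 0.05, limma adjusted p = 0.945) and the difference of knockout from heterozygote 0.08 (SE 0.05, limma adjusted p = 1), which was 0.05 without heterozygote replicate 3. Ccne2 was at 7.26 ± 0.0902, 7.14 ± 0.993 and 7.28 ± 0.263 FPKM. Cdk2, the kinase both bind, was at 36.9 ± 3, 38.5 ± 1.52 and 36.3 ± 2.77 FPKM.

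Members whose groups did not overlap were few. In knockout against wild type they were Cdc6 and Rrm2, higher, and none lower (2 of 43 and 0 of 43), where 4.55% and 6.64% of the genes tested did not overlap. In heterozygote against wild type they were Cdc6 and Pcna, higher, and Ccne1, lower (2 and 1 of 43), where the shares were 3.54% and 7.05%. In knockout against heterozygote they were Cdc6 and Bub1b, higher, and none lower, where they were 3.48% and 2.43%. Apart from Cdc6, which did not overlap in any of the 3 comparisons under either scaling, and Pcna in heterozygotes, the names changed with size factors. In knockout against wild type, Kif11, Kif23, Ube2c and Cdkn1a then joined Cdc6 as higher and Ccnd3 was lower (5 and 1 of 43), where 6.22% and 6.26% of the genes tested did not overlap. In heterozygote against wild type, Cdc20 and Aurka joined Cdc6 and Pcna as higher and none was lower (4 and 0 of 43, beside 5.67% and 5.26%). In knockout against heterozygote, Cdc6 and Rrm1 were higher and none lower (2 and 0 of 43, beside 3.35% and 2.68%).

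**Figure D5:**
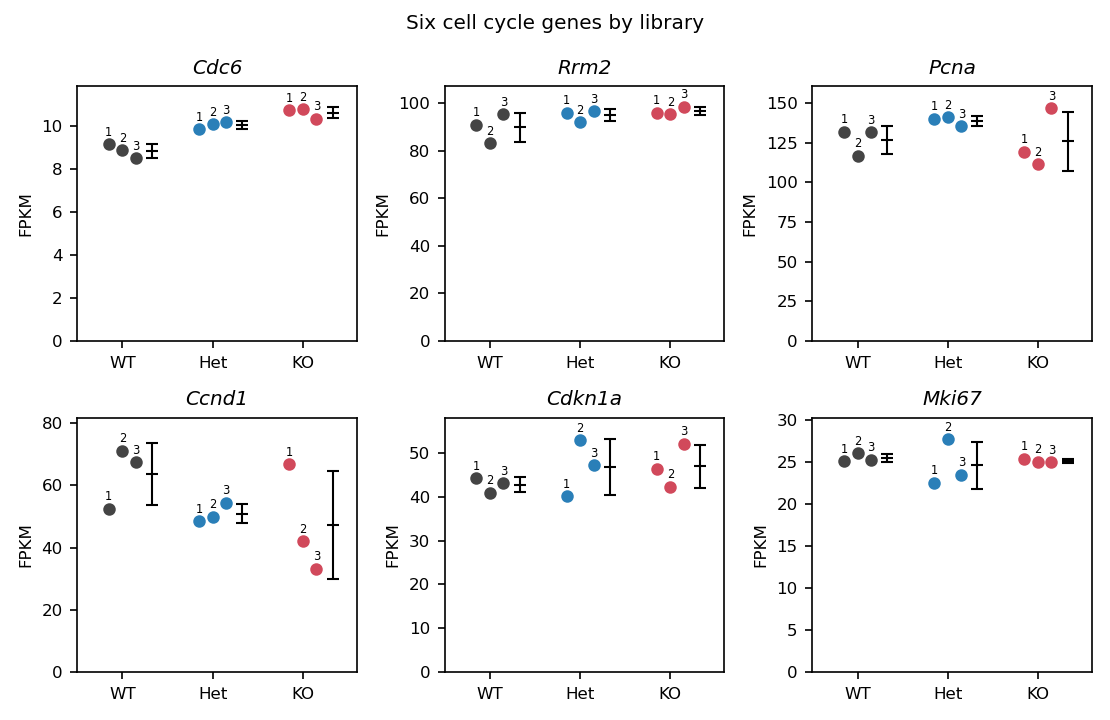
FPKM of Cdc6, Rrm2, Pcna, Ccnd1, Cdkn1a and Mki67 in each library, with the replicate number above each point; black bars give the mean and SD of 3 libraries, and each axis starts at 0. Cdc6 steps up from wild type (8.49 to 9.14 FPKM) to heterozygote (9.82 to 10.2) and knockout (10.3 to 10.8), and Ccnd1 in knockouts splits between replicate 1 (66.8) and replicates 2 and 3 (42 and 33.3).

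Genes of mitotic entry were close to wild type in both other genotypes. Cdk1, the kinase that drives mitosis, was at 75.1 ± 5.31, 75 ± 1.53 and 75.9 ± 3.16 FPKM in wild type, heterozygotes and knockouts. Its cyclins Ccnb1 and Ccnb2 were at 32.9 ± 1.15, 33.4 ± 1.21 and 34.8 ± 1.21 FPKM and at 81.4 ± 4.23, 84.2 ± 4.1 and 87 ± 7.73 FPKM. Ccna2, the cyclin of S phase and G2, was at 106 ± 8.48, 109 ± 2.58 and 108 ± 3.92 FPKM. Foxm1, a transcription factor of the G2 and mitosis programme, was at 24 ± 2.58, 24.1 ± 1.57 and 24.5 ± 2.78 FPKM. The mitotic kinases Plk1, Aurka and Aurkb had wild-type means of 59.9, 42 and 56.6 FPKM and knockout means of 61.7, 44.1 and 60.5 FPKM, with overlapping groups.

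Genes of the spindle, its checkpoint and mitotic exit were similar. Cdc20, which activates the anaphase-promoting complex, was at 103, 89.7 and 106 FPKM in wild type, 120.1, 104 and 107 FPKM in heterozygotes and 107, 97.5 and 112 FPKM in knockouts. Its difference between heterozygote and wild type was 0.15 (SE 0.08, limma adjusted p = 0.945), and 0.08 without wild-type replicate 2 or 0.09 without heterozygote replicate 1. Bub1b, the checkpoint kinase gene, was at 36, 32.3 and 35.9 FPKM in wild type, 35.2, 32.9 and 35 FPKM in heterozygotes and 36, 35.6 and 38.4 FPKM in knockouts. The knockouts lay above the heterozygotes (difference 0.09, SE 0.06, limma adjusted p = 1, and 0.06 without knockout replicate 3) and overlapped with wild type. Its relative Bub1 was at 17.6 ± 1.73, 16.4 ± 0.836 and 16.4 ± 1.07 FPKM. The kinesin genes Kif11, Kif20a and Kif23 and the spindle genes Tpx2 and Nusap1 had means between 19.9 and 41.6 FPKM in each genotype, with overlapping groups as deposited. Top2a, the topoisomerase that untangles chromosomes, was at 66.2 ± 2.69, 64.7 ± 4.64 and 66.1 ± 3.4 FPKM.

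Mki67 overlapped between all genotypes. It was at 25, 26 and 25.3 FPKM in wild type, at 22.5, 27.7 and 23.5 FPKM in heterozygotes and at 25.4, 25 and 24.9 FPKM in knockouts. Heterozygotes held both the lowest and the highest library. Knockout minus wild type was -0.02 (SE 0.07, 95% interval -0.182 to 0.145, limma adjusted p = 0.94), and its sign turned with size factors (0.01) and with sex as a covariate (0.015).

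Ccnd1 was the member with the largest difference from wild type, and the knockout libraries were split. Ccnd1 (mm9 chromosome 7, 152115836 to 152125830) encodes cyclin D1, which links growth factor signals to Cdk4. It was at 52.5, 71.1 and 67.3 FPKM in wild type, at 48.4, 49.9 and 54.4 FPKM in heterozygotes and at 66.8, 42 and 33.3 FPKM in knockouts. Knockout replicates 2 and 3 lay below all other libraries, knockout replicate 1 lay within the wild-type range, and heterozygotes overlapped with the lowest wild-type library only. Knockout minus wild type was -0.47 (SE 0.21, limma adjusted p = 0.58). It was -0.74 without knockout replicate 1 (limma adjusted p = 0.081) and -0.25 without knockout replicate 3 (limma adjusted p = 0.83), over a range of limma adjusted p from 0.081 to 0.97 in 20 alternatives. Its coefficient of variation exceeded that of 96.8% of the tested genes in the members' range of levels. Knockout replicates 2 and 3 also had the lowest summed mesenchyme levels (1177 and 1320 FPKM, against 1695 in replicate 1) and low summed endocrine levels (3489 and 3173 FPKM, against 5113). In replicates 1 to 3, endocrine sums were 4186, 5751 and 5895 FPKM in wild type and 3312, 5104 and 4407 FPKM in heterozygotes. Mesenchyme sums were 1716, 1956 and 1481 FPKM in wild type and 1541, 1369 and 1571 FPKM in heterozygotes. Heterozygote replicate 2, for instance, had Ccnd1 at 49.9 FPKM and wild-type replicate 3 at 67.3 FPKM. The part of these cell types in the Ccnd1 level was not tested.

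The other D-type cyclin genes had smaller differences. Ccnd3 was at 156, 151 and 159 FPKM in wild type, 158, 139 and 151 FPKM in heterozygotes and 152, 131 and 142.5 FPKM in knockouts, a difference between knockout and wild type of -0.13 (SE 0.07, limma adjusted p = 0.58), which was -0.08 without knockout replicate 2. Ccnd2 was at 48.3 ± 2.06, 47.3 ± 2.25 and 44.6 ± 2.85 FPKM. Of the summed FPKM of the 3 D-type cyclins, Ccnd1 made up 20.3%, 26.3% and 24.7% in wild type, 19% to 21.8% in heterozygotes and 25.1%, 19.6% and 15.1% in knockout replicates 1 to 3. Ccnd3 supplied the largest share in every library, 55.7% to 64.4%. Cdk4 was at 483.5 ± 32.8 FPKM in wild type, 496 ± 12.4 in heterozygotes and 488 ± 22.5 in knockouts.

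Neither CDK inhibitor among the members differed beyond its spread. Cdkn1a, which encodes p21 and is a target of p53, was at 44.2, 40.9 and 43 FPKM in wild type, 40.2, 52.8 and 47.2 FPKM in heterozygotes and 46.3, 42.2 and 52 FPKM in knockouts. Heterozygote replicate 2 and knockout replicate 3 were the highest, and the groups overlapped as deposited, though not between knockout and wild type with size factors. Knockout minus wild type was 0.13 (SE 0.10, limma adjusted p = 0.68), with 0.05 without knockout replicate 3 and 0.197 without knockout replicate 2. Cdkn1b, which encodes p27, was at 25.7 ± 1.34, 25.7 ± 1.36 and 26.3 ± 1.94 FPKM, with a difference of 0.03 between knockout and wild type (SE 0.07, limma adjusted p = 0.88) that turned to -0.025 without knockout replicate 1.

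Of the 43 genes, 8 lie on chromosome 2, which also carries Nkx2-2 (mm9 147003282 to 147012138) and the mutated locus beside it. The nearest were Tpx2, 5.66 Mb beyond Nkx2-2, and E2f1, 7.37 Mb beyond it, followed by Pcna at 14.9 Mb on the other side. Bub1, Nusap1 and Bub1b lay 19.4, 27.5 and 28.5 Mb before and Ube2c and Aurka 17.6 and 25.2 Mb beyond Nkx2-2. Their differences between knockout and wild type lay between -0.10 (Bub1) and 0.09 (Ube2c). Tpx2 was at 38 ± 2.51, 38.9 ± 1.32 and 40 ± 1.49 FPKM in wild type, heterozygotes and knockouts. Cdc6 and Ccnd1 lie on other chromosomes.

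Further genes of the same processes, from lists chosen by function, were read from the same fit. Of 30 other replication genes, 30 other mitosis genes, 17 tested of 19 other regulators of G1 and 14 tested of 15 targets of p53, 0 passed in either direction in any of the 3 comparisons by limma. At an unadjusted p under 0.05 between knockout and wild type, 2 replication genes were higher and 1 lower, 1 mitosis gene was higher, 2 regulators of G1 were lower and 0 targets of p53 were either, beside 2.6% of all genes tested higher and 5.79% lower. Positive differences between knockout and wild type numbered 22 of 30 (median 0.06), 18 of 30 (0.01), 8 of 17 (-0.02) and 9 of 14 (0.04), beside 41.5% and -0.03 over all genes. Among replication genes, Dbf4, the activator of the kinase that fires origins, was at 23.1 ± 1.67 FPKM in wild type and 26.3 ± 1.15 in knockouts. Orc6, of the origin recognition complex, was at 41.5, 41.8 and 42.1 FPKM in wild type, 39.7, 37.3 and 36.6 in heterozygotes and 39.7, 35.4 and 38.4 in knockouts. Each of the 6 mutant libraries was thus below each wild-type library (knockout difference -0.14, SE 0.06, limma adjusted p = 0.58). Of all genes tested, 6.64% lay below wild type without overlap in knockouts and 7.05% in heterozygotes. The share that met both was not computed. Among mitosis genes, the kinase gene Melk was at 26.4 ± 1.58 and 29.8 ± 1.21 FPKM and Cenpf, of the kinetochore, at 4.77 ± 0.52 and 4.33 ± 0.106 FPKM. Among targets of p53, Sesn1 was at 22.7 ± 0.508 and 24.1 ± 1.22 FPKM and Phlda3 at 19.2 ± 2.03 and 16.4 ± 3.64 FPKM.

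Cdkn1c, the CDK inhibitor p57 that marks cells leaving the cycle and is imprinted, was the most abundant inhibitor examined. It was at 396.5, 421.9 and 374.5 FPKM in wild type, at 358, 352 and 349.5 FPKM in heterozygotes and at 374, 309 and 323 FPKM in knockouts. All 6 mutant libraries lay below the wild-type libraries, knockout replicate 1 just so. Lower without overlap were 6.64% of the genes tested in knockouts and 7.05% in heterozygotes, and the share in both was not computed. Knockout minus wild type was -0.25 (SE 0.08, limma adjusted p = 0.58), and over 20 alternatives it lay between -0.33 and -0.19, with limma adjusted p from 0.081 to 0.97. Tfdp1, the dimer partner of the E2F factors, was at 49.1 ± 2.65 and 52.9 ± 1.1 FPKM in wild type and knockout.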

How the data were processed

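RNA from 9 whole pancreas samples was sequenced with a TruSeq kit on a HiSeq2000 and aligned by TopHat 2.0.4 to mm9 (up to 4 mismatches, 10 hits), per the labels. The submitters' processing notes also list DESeq, Cufflinks and CASAVA 1.8.2. The deposited values are FPKM with confidence bounds, per the file headers; for annotation and strand use: not given in the sources used here. Groups and replicate numbers came from the titles. FPKM of loci sharing a symbol were summed, and 4 of 23235 symbols with estimates failed for excess data were left out. Implied fragments were computed as the squared ratio of FPKM to its standard error (the upper bound lies 2 standard errors above); they cover counting error only.

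Genes reaching 1 FPKM in at least 3 libraries were tested with limma 3.58.1 in R 4.3.3 on log2(FPKM + 1), with an intensity trend and genotype as the sole term over the 9 libraries together. This scale understates changes of low genes. p-values were two-sided, Benjamini-Hochberg adjusted over all 13306 genes (threshold 0.05). The code was tested on simulated data. Log2 differences are given for the 3 members with the smallest p per comparison, for Mki67, Ccnd1, Cdkn1a and Cdkn1b. For Cdc6 the difference between knockout and heterozygote is given as well. Of the other lists, the genes named are those with the smallest p in each direction between knockout and wild type, and log2 differences are printed for Orc6 and Cdkn1c. The members and lists were chosen with earlier results of these data known. Of 37 member promoters, bases after the start were found in a GENCODE transcript of the gene for 31. The alternatives are in the closing section.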

Additional observations from a re-analysis of the deposited data

How the results depend on the processing

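In each of the 20 alternatives and 3 comparisons, 0 cell cycle genes passed. The number of genes called over the whole table was 0 as reported. Leaving out single libraries gave 0 to 1 genes in knockout against wild type, 0 to 7 in heterozygote against wild type and 0 to 4 in knockout against heterozygote; the highest of the last 2 came without knockout replicate 1. Without the libraries labelled knockout and heterozygote replicate 1 together, 4, 5 and 5 genes were called, and with only the 2 groups compared 1, 6 and 0. In each of the 20 alternatives the median differences of the S phase and the G2 and mitosis genes moved little from the reported value. The moves were smaller than the SD of a single library's median within a group (0.0621 and 0.0571). Some of these median differences still changed sign. Without single libraries they ranged from -0.03 to 0.05 and 0.01 to 0.09 in knockout against wild type, -0.02 to 0.06 and -0.02 to 0.06 in heterozygote against wild type, and 0.004 to 0.04 and 0.004 to 0.05 in knockout against heterozygote.

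The sign of Mki67 turned between knockout and wild type with size factors (0.01) and with sex as a covariate (0.015), and that of Cdkn1b without knockout replicate 1, alone or with heterozygote replicate 1 (-0.025 in both, and up to 0.074 without other single libraries); the cause was not tested. Whether replicate numbers pair the samples was not settled by correlations of deviations from the group means, given so few libraries. Same-numbered libraries had -0.189 to 0.29 and differently numbered ones -0.344 to 0.276. Between heterozygotes and knockouts, same-numbered libraries had 0.29, 0.275 and 0.047, beside -0.344 to 0.148 for different numbers. Between wild type and either mutant group, same-numbered libraries had -0.189 to 0.182. With the replicate block, 0, 1 and 0 genes and 0 cell cycle genes were called. Size factors moved the median of all genes by 0.03 or less.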
